A study of Mus musculus with 6 samples.

Results

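The regions described here are 4538 promoter peaks of open chromatin that were called in mouse definitive endoderm with OTX2 present and not after its loss. They were selected by 3 conditions: a row of the authors' table of all peaks overlapped the pooled DMSO peak list by at least 1 base, overlapped no peak of the pooled dTAG13 list, and was annotated by the authors as promoter within 1000 bases of a start site. They make up 4538 of the 70494 peaks of the table and lie at 4033 genes. Another 15354 promoter peaks touched both lists and 1747 touched the dTAG13 list alone, and these are the classes used for comparison. The assay was ATAC-seq, which reads out where a transposase can reach the DNA. All libraries came from 1 cell line, 7H OTX2-dTAG-EGFP, of BL6/129 hybrid background, which is named for a dTAG degradation tag and EGFP on OTX2, and the control arm carried the same alleles as the treated arm. Epiblast stem cells received Activin A at 40 ng/ml together with CHIR at 3 uM for 16 h, and Activin A at 100 ng/ml together with LDN at 100 nM for a further 24 h. The 3 dTAG13 libraries came from cells to which the degrader dTAG13 was added at the primitive streak stage and left for 24 h, and the 3 DMSO libraries from cells given the solvent for the same 24 h. Live cells were sorted, with 50000 cells per library. The submitters describe the 3 libraries of a group as technical replicates, so any spread given below is that between repeated libraries and need not hold the spread between cultures.

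OTX2 is a homeodomain transcription factor of the paired class that binds a TAATCC core, which reads GGATTA on the other strand. In the early embryo it is required for the anterior visceral endoderm, the anterior mesendoderm and the forebrain, and it is also active in epiblast-stage pluripotent cells. Promoters fall into CpG-rich ones, which are open in most cell types and typical of housekeeping genes, and CpG-poor ones, which are more often restricted to particular cell types.

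Because the OTX consensus is the binding word of the depleted factor, 5 stretches that carry it are shown first, although most members, called or not, hold none. They belong to the members with the smallest p in the authors' table, over all called members or over members holding the consensus, and their consensus lies outside annotated exons. Each was read from GRCm38.p6, the assembly of mm10, along the plus strand, and the capitals mark each consensus match on either strand.
Pou5f1, chr17:35507358-35507481: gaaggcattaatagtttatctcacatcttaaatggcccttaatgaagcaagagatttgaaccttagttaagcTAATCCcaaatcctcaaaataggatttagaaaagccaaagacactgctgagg
Mir1942, chr15:76215411-76215561: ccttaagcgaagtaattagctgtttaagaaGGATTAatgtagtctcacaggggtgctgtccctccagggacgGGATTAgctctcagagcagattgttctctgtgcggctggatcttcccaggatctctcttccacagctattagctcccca
Plekhm3, chr1:64836020-64836170: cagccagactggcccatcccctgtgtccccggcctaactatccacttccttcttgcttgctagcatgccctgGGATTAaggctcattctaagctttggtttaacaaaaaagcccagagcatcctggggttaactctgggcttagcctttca
Zfp365, chr10:67901376-67901526: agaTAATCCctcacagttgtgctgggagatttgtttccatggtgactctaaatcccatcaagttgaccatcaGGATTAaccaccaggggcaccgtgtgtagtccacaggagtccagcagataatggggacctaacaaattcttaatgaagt
2210406O10Rik, chr5:36463689-36463839: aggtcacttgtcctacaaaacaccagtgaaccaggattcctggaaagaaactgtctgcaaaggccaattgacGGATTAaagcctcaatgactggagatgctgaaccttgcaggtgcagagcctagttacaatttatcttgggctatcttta
Mir1942 and Zfp365 hold 2 matches each in the stretch shown. In Pou5f1 the match lies 201 bases from the peak midpoint, near the end of the 408-base peak that faces the start site, and so outside the window of 100 bases used for the counts below. The other 4 have a match within that window.

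The signal behind these peaks was low, and the DMSO arm had the larger size factors. The authors' table gives 1 mean normalized count per peak, but whole reads per library could be recovered from it for 4533 of the members, as described under the processing, and all reads per library below are these recovered reads. Libraries are listed within a group by decreasing size factor, since the replicate numbers of the labels could not be matched to them. Size factors, the values by which reads were divided, were 1.35, 1.31 and 1.09 for DMSO and 0.961, 0.823 and 0.780 for dTAG13. The ratio between the sums of the groups was 1.46. The DMSO list held 65089 peaks and the dTAG13 list 44391. How far the difference in size factors, or one in sequencing depth, decided which promoters entered the DMSO list alone was not tested. As a check of the labelled cell type, 12 of 16 definitive endoderm genes had a promoter peak of both lists, among them Sox17, Foxa2 and Gata6. The same was true of 3 of 8 visceral endoderm genes, 5 of 16 primitive streak and mesoderm genes and 6 of 10 neural genes, so open promoters alone do not single out the cell type. Otx2 itself had no promoter peak in the table, and accessibility would not show the loss of a protein.

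Members were short and weak in comparison with the promoter peaks that both lists shared. Their median length was 95 bases against 231 for both lists and 82 for the dTAG13 list alone, and their median mean normalized count in the authors' deposited table was 6.02 against 23.0 and 5.89. A member held a median of 28 reads over the 3 DMSO libraries and 11 over the 3 dTAG13 libraries, so the typical member had not lost all of its reads. After division by the size factors the medians per library were 7.56 (quartiles 5.41 and 10.6) and 4.39 (quartiles 2.49 and 6.71). Summed over members, DMSO reads exceeded dTAG13 reads 2.58-fold before and 1.77-fold after this division. In 146 members (3.22%) the 3 dTAG13 libraries held no read at all. Among peaks with a mean count under 14, this held for 3.39% of members and 5.15% of all peaks. In 396 members (8.74%) the normalized dTAG13 mean was the higher one, although no dTAG13 peak had been called there.

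List membership of a promoter peak went with its signal. Of the 593 promoter peaks with a mean normalized count under 3 in the authors' deposited table, 76.1% were members and 6.58% touched both lists. Of the 5573 with a mean of 10 to 20, 11.9% were members and 85.0% touched both lists, and of the 8840 at 20 or more, 41 (0.464%) were members. These values describe the calls that define the set.

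Fold changes come from the same contrast as the peak lists and are given as a description. In the authors' deposited table the median log2 fold change of dTAG13 over DMSO was -0.80 for members (quartiles -1.43 and -0.36), 0.10 for promoter peaks of both lists and 1.21 for those of the dTAG13 list alone. The median over all 70494 peaks was -0.18, and relative to it the members' median was -0.62. Members ranged from -6.54 to 1.09 in the authors' deposited table, and 394 lay above 0. At the authors' adjusted p under 0.05, 185 of the 4461 members with an adjusted p were called lower in dTAG13 (4.15%), against 3.79 percent of all peaks, and 0 were called higher, against 1.47 percent of all peaks. Nothing is read from these shares, since the rule used the contrast. The 185 called members had a log2 fold change between -6.54 and -1.10 in the authors' deposited table, with a median of -3.22. Among members with a mean count under 14, every DMSO library lay above every dTAG13 library in 1185 of 4303 (27.5%), against 21.5 percent of all peaks in that range.

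**Figure D1:**
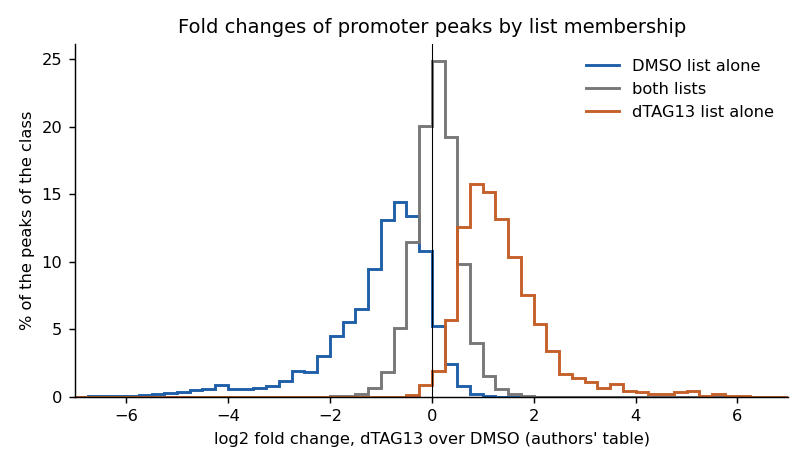
Distribution of the authors' log2 fold changes (dTAG13 over DMSO, x axis, bins of 0.25) for the 4538 promoter peaks of the DMSO list alone, the 15354 of both lists and the 1747 of the dTAG13 list alone, as the percentage of each class (y axis). The members peak below 0 with a tail to -6.54, the shared peaks centre near 0, and 1730 of the 1747 peaks of the dTAG13 list alone lie above 0.

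The called members with the smallest p included promoters of pluripotency, signalling and anterior genes. Pou5f1, which encodes the pluripotency factor OCT4, had 53, 55 and 34 reads in the DMSO libraries and 2, 6 and 4 in the dTAG13 libraries. The normalized means were 37.5 ± 5.6 (SD, n = 3) and 4.83 ± 2.62 (SD, n = 3), and the groups did not overlap. Its log2 fold change in the authors' deposited table was -2.99 ± 0.52 (SE), and its adjusted p there was 1.8e-05. The midpoint lay at position -250 from the start site. The only other promoter peak of Pou5f1 in the table, a 70-base peak with its midpoint 641 bases downstream of a start, was in the dTAG13 list alone with a mean count of 4.47. Smad5, a transducer of BMP signals, had 49, 54 and 38 reads in DMSO and 4, 4 and 9 in dTAG13, and its log2 fold change in the authors' deposited table was -2.49 ± 0.47 (SE). The Smad5 member lay at position -1001 from a later start site of the gene, and the promoter peak at the first start site touched both lists, with a log2 fold change of 0.16 ± 0.35 (SE) in the authors' deposited table. Ppa2, a mitochondrial pyrophosphatase, had the same arrangement, with its member 204 bases downstream of a later start. Its member had 41, 63 and 43 reads in DMSO and 4, 7 and 4 in dTAG13, while its 2 upstream promoter peaks of both lists had log2 fold changes of 1.31 and 0.63 in the authors' deposited table, and the first of these was called higher.

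Several called members had no read in any dTAG13 library. Both mates of a pair appear to have been counted, since 78.2% of the recovered counts above 0 were even, so the limit that a count of 0 allows was taken as 3 pairs, or 6 reads, over the group. Eya1, a transcriptional coactivator with phosphatase activity, had 30, 30 and 12 reads in DMSO and 0 in all 3 dTAG13 libraries, so its normalized level was at least 8.20-fold lower. The near edge of this peak lay 953 bases from a start site. A second peak, of the dTAG13 list alone, had its midpoint at position -38 from its own nearest start site. Its log2 fold change in the authors' deposited table was 0.82 ± 0.90 (SE). The promoter peak of both lists at Eya1 had a log2 fold change of 0.68 ± 0.31 (SE) in the authors' deposited table. Scpep1os, an antisense transcript, had 18, 14 and 23 reads against 0, at least 6.26-fold lower, and a second member of Scpep1os was called as well, with a log2 fold change of -2.11 ± 0.54 (SE) in the authors' deposited table. Plekhm3 had 18, 20 and 16 reads against 0, at least 6.15-fold lower. Dolpp1, an enzyme of dolichol recycling, kept 2 reads in 1 dTAG13 library against 46, 45 and 38 in DMSO, a ratio of 44.1 with an exact 95% counting interval of 12 to 368, which treats mates as separate reads and is too narrow. At Eya1, Scpep1os, Plekhm3 and Dolpp1 the DMSO libraries were high and the dTAG13 libraries were at or near 0.

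Among the remaining called members with the smallest p, 3 were annotated to lincRNA genes or a microRNA gene. Gm12410 had 40, 52 and 40 reads in DMSO and 4, 2 and 5 in dTAG13. Gm35842 had 41, 34 and 25 reads against 0, 2 and 2. The microRNA gene Mir1942 had 32, 26 and 41 reads against 0, 4 and 0. The groups did not overlap in any of the 3. The protein-coding gene B230104I21Rik had 62, 52 and 44 reads against 14, 7 and 8, the most dTAG13 reads of the 12 members with the smallest p.

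**Figure D2:**
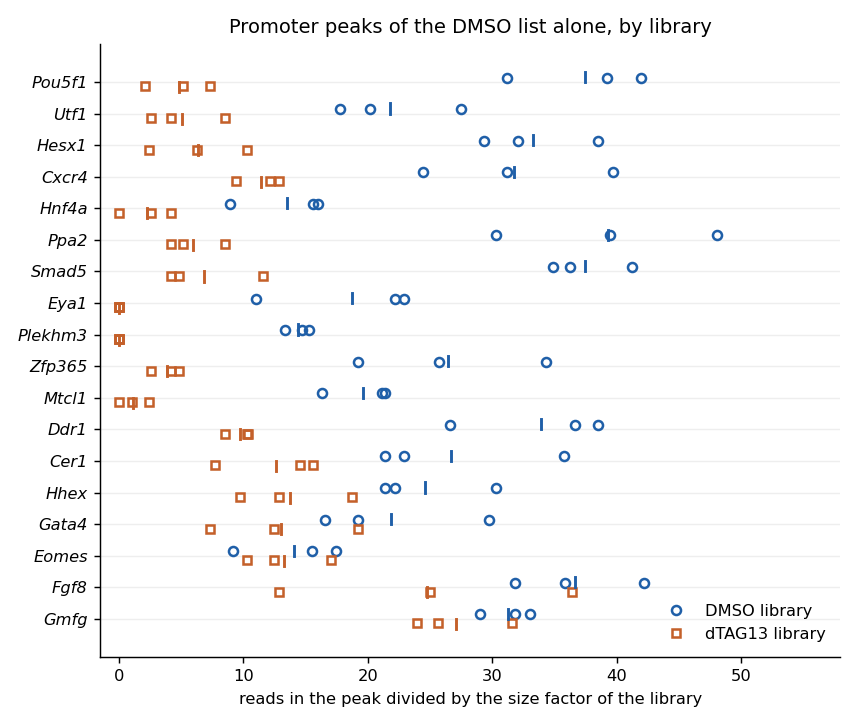
Recovered reads divided by the size factor of the library (x axis) for 18 named promoter peaks of the DMSO list alone (y axis, gene names, the stronger peak where a gene had several). Open circles are the 3 DMSO libraries, open squares the 3 dTAG13 libraries, and short vertical bars the group means. From Pou5f1 to Hhex the groups do not overlap. From Gata4 to Gmfg they do, and Eomes had nearly the same mean in both groups.

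Most of the 8 members with the highest mean count, a mean over both arms, were not called lower. Among all members, calls covered 15 of the 41 at a mean count of 20 or more and 58 of 664 at 10 to 20. They covered 63 of 2180 at 5 to 10, 31 of 1202 at 3 to 5 and 18 of 451 under 3. These stand beside 4.15% of all members with an adjusted p and 3.79% of all peaks. Bmp7, a BMP ligand, had the highest mean count of all members, 85.2 in the authors' deposited table, with a log2 fold change of -0.06 ± 0.20 (SE). Its member is a 66-base peak over the start site, 348 bases from a dTAG13 peak, and reads per library were not recovered for it. Gmfg, an actin regulator, had 43, 38 and 36 reads in DMSO and 23, 26 and 20 in dTAG13, with normalized means of 31.3 ± 2.07 and 27.1 ± 4.02 (SD, n = 3) and overlapping groups. Notch3, a Notch receptor, had 49, 44 and 37 reads against 17, 21 and 16, with groups that did not overlap, and its log2 fold change in the authors' deposited table was -0.71 ± 0.34 (SE). Dazap1, an RNA-binding protein, had 52, 63 and 44 reads against 27, 21 and 14, and Wipf2, an actin-cytoskeleton gene, had 46, 56 and 38 against 29, 16 and 11. Of the 8 strongest members, Cutal alone was called lower, with 67, 50 and 57 reads against 14, 18 and 23 and a log2 fold change of -1.10 ± 0.32 (SE) in the authors' deposited table. Gm38102, the second strongest, had a log2 fold change of -0.74 ± 0.29 (SE) there and was not called.

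Members at listed developmental genes were examined over 7 gene lists, of which 23 of 88 genes had a member. Over all genes, a member was present at 4033 of the 26796 with any peak (15.1%), of which 14926 had a promoter peak. Calls per list stand beside 4.15% of all members and 3.79% of all peaks called lower, and the counts per list are small. In the list of anterior endoderm and organizer genes, 3 of 18 had a member and 14 had a promoter peak of both lists. Hesx1, a homeobox repressor needed for the anterior forebrain and pituitary, had 52, 42 and 32 reads in DMSO and 6, 2 and 8 in dTAG13. Its normalized means were 33.3 ± 4.68 and 6.31 ± 3.92 (SD, n = 3), and the log2 fold change in the authors' deposited table was -2.42 ± 0.49 (SE). This was the only promoter peak of Hesx1 in the table, with its midpoint 214 bases downstream of the start site, and the gene is marked as down in the table. Cer1, a secreted antagonist of Nodal, BMP and Wnt, had 31, 28 and 39 reads against 15, 12 and 6 at a peak with its midpoint at position -581 from the start, and the groups did not overlap. The authors' adjusted p for it was 0.13, and the second promoter peak of Cer1, at the start site, touched both lists with a log2 fold change of -0.17 ± 0.30 (SE) in the authors' deposited table. Hhex, a homeobox gene of the anterior endoderm, had 30, 28 and 33 reads against 18, 8 and 10 at a peak 191 bases downstream of a later start site. It was not called. Its groups did not overlap, which was true of 1300 of the 4533 members with recovered reads (28.7%). Among peaks with a mean count under 14, it was true of 27.5% of members and 21.5% of all peaks. The peak at the first start site of Hhex touched both lists, with a log2 fold change of -0.22 ± 0.28 (SE) in the authors' deposited table.

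Of the 16 definitive endoderm genes, 6 had members, 7 in all, and 2 members were called lower. Cxcr4, the chemokine receptor used to sort definitive endoderm, had 2 members. The upstream one, with its midpoint at position -1089 from the start, had 33, 52 and 34 reads in DMSO and 9, 10 and 10 in dTAG13 and was called, with a log2 fold change of -1.48 ± 0.42 (SE) in the authors' deposited table. The one at the start had 23, 12 and 17 reads against 2, 6 and 7 and was not called. Between them lay a promoter peak of both lists with a log2 fold change of 0.34 ± 0.56 (SE) in the authors' deposited table. Hnf4a, a nuclear receptor of gut and liver endoderm, had 12, 21 and 17 reads against 4, 0 and 2 and was called, with a log2 fold change of -2.54 ± 0.82 (SE) in the authors' deposited table. It was the only peak that the table assigned to Hnf4a. Gata4 had 26, 39 and 18 reads against 12, 6 and 15, Foxa1 had 11, 17 and 2 against 6, 6 and 2, and Eomes had 21, 12 and 19 against 12, 14 and 8. These 3 transcription factor genes had overlapping groups and a further promoter peak of both lists each.

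In the pluripotency list, 5 of 12 genes had 8 members, of which 2 were called lower. Besides Pou5f1, the called one was Utf1, a chromatin factor of undifferentiated cells, with 24, 36 and 22 reads in DMSO and 4, 7 and 2 in dTAG13. Its log2 fold change in the authors' deposited table was -2.10 ± 0.57 (SE), and it was the only peak that the table assigned to Utf1. The members of Klf4, Esrrb and Lin28a were not called, and in the authors' deposited table their log2 fold changes lay between -1.16 and -0.19. At primitive streak and mesoderm genes 4 of 16 had a member and 0 of these members were called. Fgf8, a ligand of the streak, had 43, 47 and 46 reads against 24, 30 and 10, and its gene is marked as up in the table. Tbx6 had 25, 16 and 5 reads against 8, 7 and 6, Wnt3a had 5, 10 and 6 against 5, 1 and 1, and Mesp2 had 8, 6 and 0 against 2, 6 and 0. All 4 had overlapping groups. Of 10 neural genes, Pax3 and Nes had a member, neither called, and of 8 visceral endoderm genes 0 had one. The homeodomain cofactor and TLE list had 5 members, among them those at Meis2 and Ssbp3, and 0 were called. The list medians of the log2 fold change in the authors' deposited table ran from -1.22 for definitive endoderm to -0.35 for the neural genes, beside -0.80 for all members, and rest on 2 to 8 members each.

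CpG content was lower in members than in the promoter peaks that both lists shared when all signal levels were pooled. The order turned only at mean normalized counts of 3 to 10. The CpG ratio, observed over expected from base composition within 250 bases of the midpoint, had a median of 0.534 in members (quartiles 0.257 and 0.789), 0.758 in promoter peaks of both lists and 0.608 in those of the dTAG13 list alone. At a mean normalized count of 3 to 5 the medians were 0.385 for members and 0.263 for both lists, and at 5 to 10 they were 0.629 and 0.557, so at like signal in these ranges, which hold 26.5% and 48.0% of the members, members had the higher ratio. At 10 to 20 they were 0.689 and 0.724, and under 3 they were 0.237 for 451 members and 0.533 for 39 peaks of both lists. Members formed 2 humps, one near 0.2 and one near 0.8. With the median of all promoter peaks, 0.722, as the boundary, 1462 members (32.2%) were CpG-rich against 56.7% of the promoter peaks of both lists and 37.0% of those of the dTAG13 list alone. Of the 185 called members, 177 (95.7%) were CpG-poor, as were 30 of the 31 promoter peaks of both lists that were called lower. Plekhm3, with a ratio of 0.037, and Mir1942, with 0.18, are examples of the CpG-poor called members. Utf1, with 0.780, was 1 of the 8 called members that were CpG-rich.

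**Figure D3:**
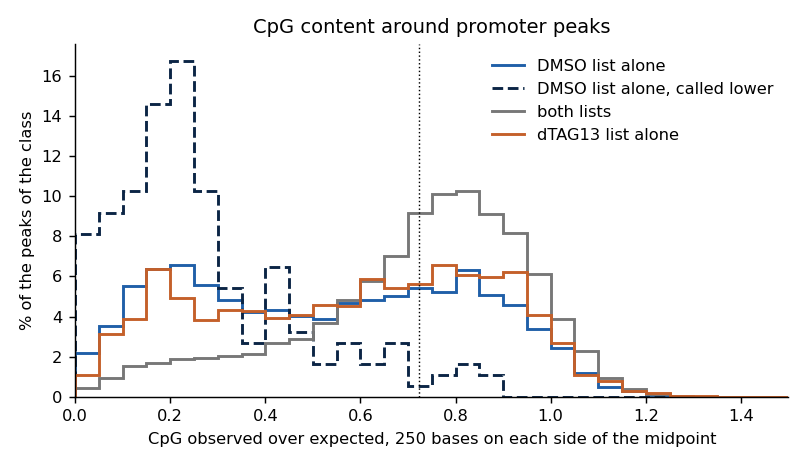
CpG observed over expected ratio (x axis, bins of 0.05) of the promoter peaks of the DMSO list alone, those among them called lower, and the promoter peaks of both lists and of the dTAG13 list alone, as the percentage of each class (y axis). The dotted line is the boundary of 0.722. The 2 single-list classes have similar humps at low and high ratios, and the called members lie almost wholly at low ratios.

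Members also lay farther from start sites than shared promoter peaks did. A start site of the authors' gene lay inside 26.7% of members against 69.6% of promoter peaks of both lists and 20.2% of those of the dTAG13 list alone, over peaks whose gene symbol was found in the reference. The median distance of the midpoint from that start was 211 bases for members, 68 for both lists and 213.5 for the dTAG13 list alone. Member midpoints lay in annotated exons in 33.4% of cases, and those of called members in 21.6%. Genes of predicted or unnamed loci were more frequent among members: symbols of the Gm series made up 12.5% of members, 5.65% of promoter peaks of both lists and 10.3% of those of the dTAG13 list alone. Protein-coding genes accounted for 79.5% of members and 89.0% of promoter peaks of both lists. Among gene families, solute carrier (Slc) genes held 2.07% of members and 1.75% of all promoter peaks, and Zfp zinc finger genes 1.65% and 2.26%. The authors' calls covered 5 of the 94 Slc members and 1 of the 75 Zfp members, beside 4.15% of all members with an adjusted p.

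At 2014 of the 4033 genes (49.9%) a promoter peak of both lists was present beside the member. Over all genes, 12368 had a promoter peak of both lists, out of 14926 with a promoter peak and 26796 with any peak. Of the 4538 members, 2293 (50.5%) shared their gene with a promoter peak of both lists, and 1553 (34.2%) lay within 500 bases of a dTAG13 peak. Among called members 70 of 185 (37.8%) shared their gene with such a peak, and there the distance was larger: the median between midpoints was 5511.5 bases for called members and 570 for members not called. At 1827 genes (45.3% of the 4033) a member was present and no promoter peak touched the dTAG13 list, and at 1087 genes (27.0%) no peak of any kind did. Of the genes, 3587 had 1 member, and the most at 1 gene was 6, at Plec, which encodes the cytoskeletal linker plectin, with 0 of them called. Mtcl1, a microtubule crosslinking protein, had 4 members and 1 call. That called member had 22, 28 and 23 reads in DMSO and 1, 2 and 0 in dTAG13.

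The OTX consensus GGATTA was more frequent around members than around other promoter peaks, but not more frequent than around all peaks. It lay within 100 bases of the midpoint, on either strand, in 377 of 4538 members (8.31%, 95% Wilson interval 7.54 to 9.15). The share was 2.81% (2.56 to 3.09) for promoter peaks of both lists, 3.03% (2.33 to 3.95) for those of the dTAG13 list alone and 3.98% for all 21639 promoter peaks. These intervals cover counting over peaks and not the spread between libraries. The reversed word ATTAGG, of the same base composition, was in 5.46% of members, 2.73% of promoter peaks of both lists and 3.89% of those of the dTAG13 list alone. Peaks of the DMSO list alone outside promoters held the consensus more often, in 16.1%, with 10.3% for the reversed word. Over all 70494 peaks, in promoters or not, the shares were 8.85% (8.64 to 9.06) and 7.09%. Among CpG-poor peaks the share was 10.9% of members (9.81 to 12), 3.78% of both lists (3.35 to 4.26) and 3.36% of the dTAG13 list alone (2.45 to 4.60). Among CpG-rich peaks it was 2.94% (2.19 to 3.94), 2.08% (1.80 to 2.40) and 2.47% (1.53 to 3.98), and there the intervals overlapped. Among peaks of like signal members also had the highest share. At a mean normalized count of 5 to 10, where the median CpG ratio was 0.629 for members, 0.557 for both lists and 0.668 for the dTAG13 list alone, the share was 7.06% (6.06 to 8.22) for members, 3.32% (2.56 to 4.30) for both lists and 2.94% (2.04 to 4.21) for the dTAG13 list alone.

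The share with the consensus followed the fold change within the members. In the authors' deposited table, members with a log2 fold change of -3 or less held it in 27.3% of 256, those from -3 to -2 in 20.3% of 360, and those from -2 to -1 in 8.74% of 1179. From -1 to 0 the share was 4.85% of 2349, and above 0 it was 4.31% of 394. The reversed word was in 8.59%, 9.72%, 5.94%, 4.21% and 5.58% of the same groups. A fall was not particular to the OTX word. The GATA word AGATAA was in 19.5%, 14.2%, 11.0%, 5.53% and 6.09% of these groups. The SOX word AACAAT was in 18.4%, 9.72%, 7.38%, 3.58% and 4.31%. The median CpG ratio also differed between the groups, at 0.223, 0.275, 0.462, 0.630 and 0.625. So did the median mean normalized count, at 3.17, 4.25, 5.58, 6.79 and 6.03. The median distance of the midpoint from the start site was 443, 292.5, 217, 172 and 226 bases. How far CpG content, signal or distance accounts for the shares was not tested. Of the 185 called members 55 (29.7%, 95% Wilson interval 23.6 to 36.7) held the consensus and 22 (11.9%) the reversed word, against 7.40% and 5.19% of members not called. The 31 promoter peaks of both lists that were called lower held it in 5 cases (16.1%, interval 7.09 to 32.6). Called peaks of the DMSO list alone outside promoters held it in 35.9% of 2094. Members with 2 or more matches numbered 33, and their median log2 fold change in the authors' deposited table was -2.79, against -1.53 for the 344 with 1 match and -0.76 for the 4161 with none. Of these 33, 10 were called, among them Zfp365 and Mir1942.

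**Figure D4:**
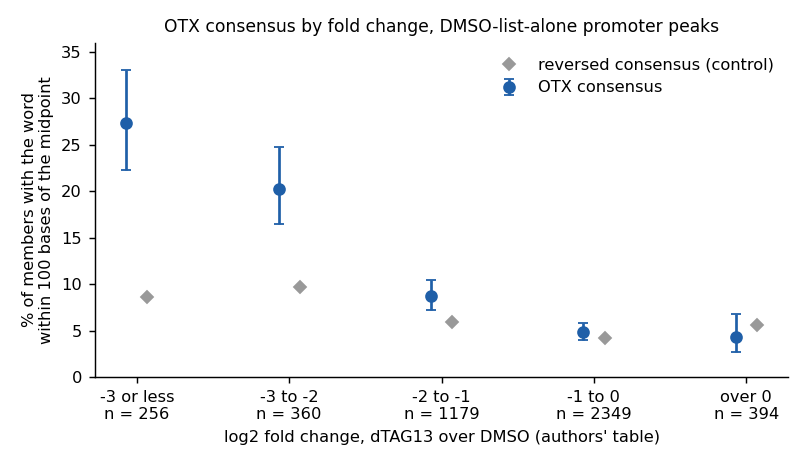
Percentage of members with the OTX consensus within 100 bases of the peak midpoint (circles, with 95% Wilson intervals) and with the reversed consensus (diamonds, no interval drawn), by the authors' log2 fold change (x axis, with the number of members). The consensus falls from 27.3% to 4.31% across the groups, and the reversed word stays between 4.21% and 9.72%.

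The consensus sat near the middle of the called peaks. There were 20 matches per 100 called members within 50 bases of the midpoint and 15.7 at 50 to 100 bases, and 2.16 at 450 to 500 bases. In members not called the values were 4.41, 3.61 and 2.87, and in promoter peaks of both lists 1.41, 1.52 and 3.37, higher away from the midpoint. Zfp365, a zinc finger gene with matches on both strands, had 26, 45 and 28 reads in DMSO and 4, 4 and 2 in dTAG13. 2210406O10Rik, a long noncoding RNA gene, had 22, 32 and 45 reads against 2, 0 and 0. Not every strongly changed member carried a match: Hesx1, Smad5, Dolpp1 and Gm12410 had none within 100 bases, which says only that these letters are not in that window.

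**Figure D5:**
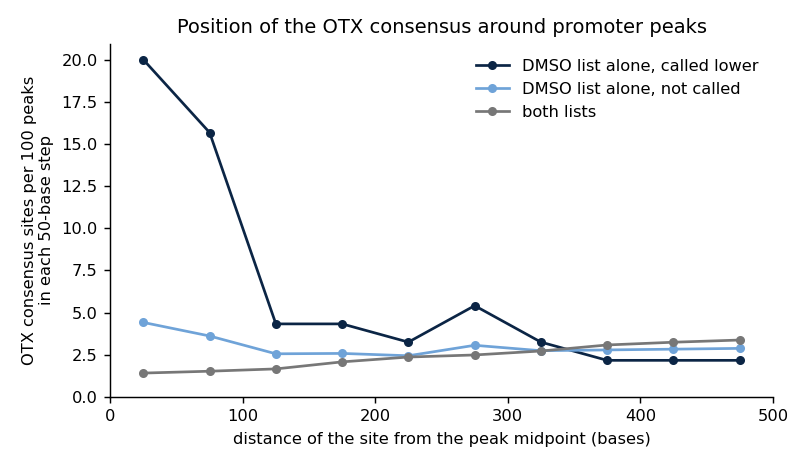
Number of OTX consensus matches per 100 peaks (y axis) in steps of 50 bases by distance from the peak midpoint (x axis), for the 185 called members, the 4353 members not called and the 15354 promoter peaks of both lists. Called members have 20 matches per 100 peaks in the innermost step, and the shared promoter peaks have 1.41.

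Other words were counted in the same window. The GATA word AGATAA was within 100 bases in 8.48% of members and 3.64% of promoter peaks of both lists, and in 25.9% of called members. The SOX word AACAAT was in 5.95%, 2.62% and 18.9%, and the FOX word TGTTTAC in 3.04%, 1.90% and 4.86%. Over all peaks the GATA, SOX and FOX words were in 15.7%, 8.84% and 5.34%, more often than in members. Peaks of the DMSO list alone outside promoters held them in 22.4%, 14.1% and 6.92%, and the called ones among these in 29.8%, 21.1% and 8.55%. At least 1 of the OTX, GATA and SOX words was present in 106 of the 185 called members (57.3%) and in 18.3% of members not called. Words of CpG-rich promoters were less frequent in members: the GC box GGGCGG was in 39.9% of members against 61.7% of promoter peaks of both lists and 16.2% of called members, and the ETS word CCGGAAG in 5.35%, 13.6% and 1.08%. Promoter peaks of the dTAG13 list alone were close to the members in these last words, with 39.2% and 5.50%, and lay between both classes for GATA, with 5.55%, and SOX, with 3.89%. The words were searched as exact letters on both strands, and a match is not a bound site.

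The table also marks genes as down or up, in columns whose rule is not stated, and 261 members (5.75%) lay at a marked gene. Genes marked down held 146 members (3.22%), beside 2.58% of promoter peaks of both lists and 3.03% of those of the dTAG13 list alone. Genes marked up held 2.53% of members, 3.01% of both lists and 4.46% of the dTAG13 list alone. Of the 185 called members, 21 (11.4%) lay at genes marked down and 2, at Igfbp2 and Porcn, at genes marked up. Besides Hesx1, the called members with the smallest p at genes marked down were Plekhm3, Zfp365, Mtcl1, Ddr1 and 2410080I02Rik. Ddr1, a collagen receptor kinase, had 52, 48 and 29 reads in DMSO and 10, 7 and 8 in dTAG13, with a log2 fold change of -1.81 ± 0.42 (SE) in the authors' deposited table. The lincRNA gene 2410080I02Rik had 26, 45 and 31 reads against 10, 2 and 3. Rfx6, a transcription factor of pancreatic and gut endoderm chosen here after its values were seen, had 14, 14 and 20 reads in DMSO and 0, 0 and 3 in dTAG13, and held a match to the consensus. Of the 21, 8 held the consensus within 100 bases.

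The peaks nearest to the limits of the rule were as follows. Znrf3 and Stat6, with a peak edge 1000 and 999 bases from the start, had 22 and 17 reads over the DMSO libraries and 6 and 11 over the dTAG13 libraries. Just beyond the limit, both at 1002 bases, Prob1 had 26 against 7 reads and Gm42498 had 29 against 13. The members with the smallest gap to a dTAG13 peak, 51 bases each, were at Btaf1, with 49 against 26 reads, and Gm25070, with 25 against 19.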

How the data were processed

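ATAC-seq was measured in 3 DMSO and 3 dTAG13 libraries. Per the submitters' processing notes, fastp, Bowtie2, MACS2, featureCounts, HOMER 4.11, ChIPseeker and build mm10 were used; their settings are not given in the sources used here. The authors deposited 1 table of all peaks with the mean normalized count per peak over all libraries (a signal divided by size factors, per the file headers), the log2 fold change and its SE, a test score, a p-value and an adjusted p-value, and 1 pooled peak list of positions per group. Values per library are not columns of the table.

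From these, peaks were classed by overlap of at least 1 base. Whole reads per library were recovered: a mean is a sum of whole reads times the worth of 1 read of each library, and the worths follow from the steps between weak peaks. A set of 6 counts was kept where exactly 1 set gave the deposited mean and, in a negative binomial fit whose dispersion was set to give the deposited SE, the deposited fold change to 0.0001. Of 51671 peaks with a mean under 14, 51664 had 1 solution, and of 4537 members under 36, 4533. Reads were assigned to a group by the direction of the authors' fold change. Depth beyond the size factors is unknown, so reads set the precision of each value.

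Sequences came from GRCm38.p6 and start sites from GENCODE mouse release 21. All 70494 peaks lay within its chromosome ends, and 4404 of 4538 members matched a gene symbol. Motifs were counted within 100 bases and CpG within 250 bases of the midpoint. No test was made, because members were chosen by the contrast itself; authors' calls were counted. The design foresaw a count test only if the files held counts per library. Members, lists and words were chosen with earlier results of these data known. Members were named by rule: the 12 called with the smallest p, the 8 strongest, those at listed genes, and the 6 with the smallest p among members with the OTX consensus and at genes marked down, plus those nearest the limits; a few of these are not reported here. Alternatives covered overlap, weak peaks, centring, thresholds, windows and left-out libraries. Python 3.11.15, numpy 2.4.6, pandas 2.3.3, scipy 1.17.1 and pysam 0.24.0 were used, and functions were tested on simulated data.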

Additional observations from a re-analysis of the deposited data

How the results depend on the processing

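The median fold change was below 0 under each alternative tried, and the sizes moved. The rule that chose the members favours a value below 0, so this is no check of the direction. Excluding members with a dTAG13 peak within 500 bases left 2985, and a mean count of at least 5 or 10 left 2885 or 705. Their share of the peaks of the DMSO list alone was 16.1%, and it was 11.7% with the 500-base exclusion, 25% and 30.5% with the count limits, 17.7% when a listed peak had to cover 50% of the table peak, and 12.8% with midpoints within 500 bases of a start site. The median log2 fold change was -0.66 and -0.71 with the count limits, -0.91 with the 500-base exclusion, and -0.62 or -0.89 with the median of all peaks or of the peaks of both lists set to 0. An adjusted p under 0.01 left 55 calls. Centring gave 134 and 213, and adjusting over all peaks 177. The OTX share was 4.69% within 50 bases (1.33% for promoter peaks of both lists), 5.73% in the peak itself (3.47%), 7.07% at a mean count of at least 5 (2.80%), 10.9% and 2.94% in CpG-poor and CpG-rich members, and 9.95% with the 500-base exclusion. A peak of both lists lay within 1000 bases of 40.1% of members, beside 50.5% by gene. Marked genes held 6.79% of members at a mean count of at least 5. For these values the cause was not tested. In an alternative chosen after seeing the data, the median log2 ratio of recovered reads, with 0.5 added, was -0.73 and ranged from -0.78 to -0.72 when each library was left out.

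No paired analysis was possible because the recovered libraries carry no replicate numbers, and the deposited values are means over libraries. The authors' fold changes and calls were not refitted without a library. Members rest on few reads, with a median of 28 over the DMSO libraries and 11 over the dTAG13 libraries, and a member without dTAG13 reads gives a lower bound only.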
